A study of Mus musculus with 6 samples.

Results

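The pentose phosphate pathway and the other enzymes that supply NADPH were examined in mixed cultured cells of mouse fat tissue, labelled Ythdf1 knockout or wild type. The set was 10 genes taken by symbol from the 53801 genes of the deposited count table: G6pdx, Pgls, Pgd, Rpia, Tkt, Taldo1, Idh1, Idh2, Nnt and Mthfd1. The cells came from 3 libraries labelled Ythdf1 knockout (KO) and 3 labelled wild type (WT), which the series calls biological replicates. All 6 cultures were grown from the stromal vascular fraction of inguinal white fat, the mixed non-adipocyte cells that hold fat cell precursors, and had been under adipogenic induction for 4 days. Strain, age, sex and the part of Ythdf1 that was removed are not given in the labels, and nothing there limits the knockout to 1 cell type. YTHDF1 is known as a cytosolic reader of m6A, a methyl mark on RNA.

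NADPH is the reducing agent that cells spend on making fatty acids and sterols and on keeping glutathione and thioredoxin reduced. The oxidative branch of the pentose phosphate pathway makes it in the cytosol from glucose 6-phosphate, and the non-oxidative branch then passes the sugar phosphates back to glycolysis or to ribose for nucleotides. NADP-linked isocitrate dehydrogenases, malic enzyme, folate enzymes and the transhydrogenase of the mitochondrial inner membrane are further sources. In adipocytes the cytosolic sources are best known for feeding fatty acid synthesis.

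Each library held between 16619605 and 20089138 counts, so that 3 counts corresponded to 0.146 to 0.185 CPM (counts scaled to a common library total). The targeted gene was checked first: Ythdf1 had 820, 754 and 892 raw counts in KO replicates 1 to 3, against 1114, 1005 and 1056 in WT replicates 1 to 3 (log2 fold change -0.50 ± 0.08, SE, edgeR adjusted p = 0.00038). The KO libraries were all below WT but kept a transcript signal, and since the removed stretch is not given, gene counts check the labels in part only. The 10 mature adipocyte markers, led by Fabp4 and Lpl, summed to 16006 to 21684 CPM in KO and 3750 to 5713 CPM in WT, and all 10 rose, with a median log2 fold change of 2.27. Of the progenitor and fibroblast markers, led in abundance by Col1a1 and Dcn, 7 of 10 fell (11379 to 12002 CPM in KO, 22033 to 23958 CPM in WT). Col1a1, at means of 7480 CPM in KO and 17724 CPM in WT, made up most of these sums. Dcn, Pdgfra and Ly6a did not pass (log2 fold changes -0.06, -0.23 and 0.10). All 8 markers of dividing cells, led by Mki67 and Top2a, fell (268 to 389 CPM in KO, 556 to 688 CPM in WT). Macrophage markers, led in abundance by Lyz2 and Mpeg1, were higher for 7 of 10. They summed to 288, 291 and 774 CPM in KO replicates 1 to 3, against 168, 113 and 93.1 CPM in WT replicates 1 to 3. Lyz2, Mrc1 and Cd14 did not pass (edgeR adjusted p = 0.099, 0.11 and 0.078). Gut epithelial markers, led in abundance by Muc2 and Krt8, were low, at 15.3 to 16.1 CPM in KO and 37.9 to 45.7 CPM in WT. All 8 fell, with a median log2 fold change of -3.43. Muc2, which made up most of the KO sum, fell the least (-0.33). Of the 6 endothelial markers, led by Tek and Cdh5, 1 rose (24.4 to 34.9 CPM in KO, 22.4 to 28.6 CPM in WT). No listed marker of any of these types was at 0 in all 3 libraries of a genotype. The part of these shifts in the results below was not tested, and in such bulk samples a change in the share of a cell type and a change in RNA per cell cannot be told apart.

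Of the 9 genes of the set that passed the filter on low counts, 8 were called higher in KO and 0 lower by the quasi-likelihood test of edgeR, at a Benjamini-Hochberg adjusted p under 0.05. The count of lower genes was also 0 at an unadjusted p under 0.05, and 0 under DESeq2. Over the 14816 genes tested, 22.6% were higher and 21.7% were lower. The median log2 fold change of the 9 genes was 0.88, against 0.01 over all genes tested. The rises ran from 0.43 for Pgls to 1.49 for Taldo1. Mthfd1 did not pass, and Nnt had too few counts to be tested. In 8 of the 9 genes every KO library lay above every WT library, which held for 27.9% of all genes tested. The reverse order, every KO library below every WT library, held for 27.3%.

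**Figure D1:**
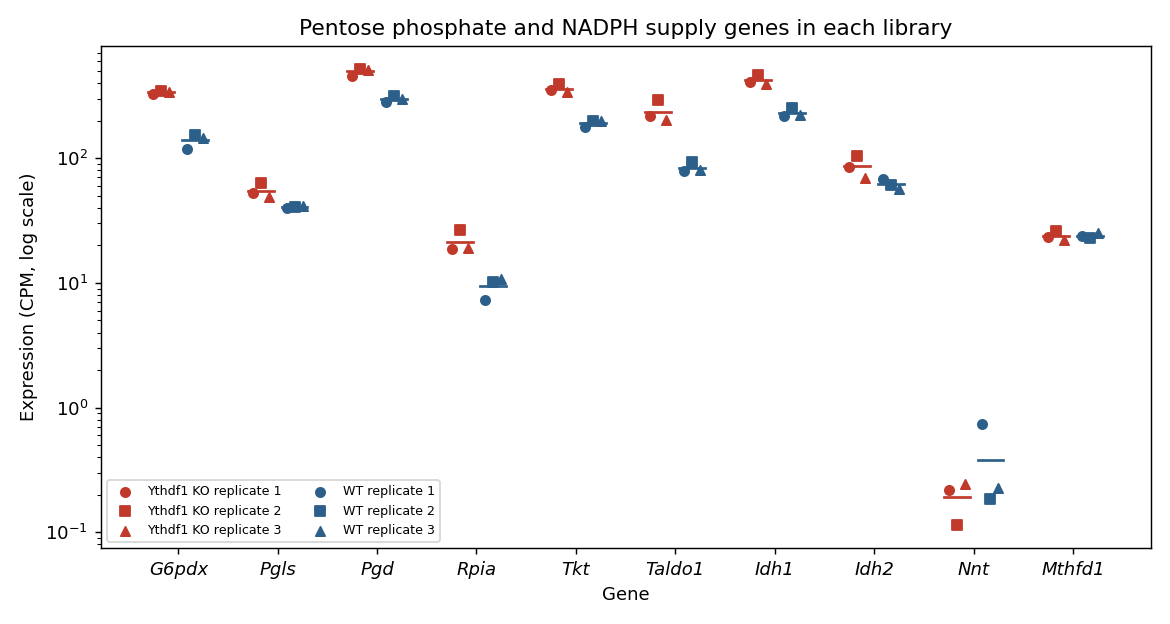
Expression of the 10 genes in each library, as CPM on a log scale, with KO to the left of WT for each gene, symbols for replicates 1 to 3 and a bar at the mean of 3 libraries. The KO points of the 8 genes that rose lie above their WT points, Mthfd1 overlaps at 22.0 to 26.02 CPM in KO and 22.9 to 25.0 CPM in WT, and Nnt sits under 1 CPM in all 6 libraries.

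The oxidative branch begins with G6pdx (ENSMUSG00000031400, chrX:74409483-74429194 in GRCm38, minus strand), which encodes glucose-6-phosphate dehydrogenase, the committed and rate-limiting NADPH-making step. G6pdx was at 329, 346 and 340 CPM in KO replicates 1 to 3, against 119, 153 and 145 CPM in WT replicates 1 to 3. The KO libraries differed from each other by little (338 ± 8.66 CPM, SD, n = 3), while WT was at 139 ± 17.9 CPM with replicate 1 the lowest. The genotypes did not overlap, and the log2 fold change was 1.28 ± 0.11 (SE), a fold of 2.43 with a 95% interval from 2.07 to 2.86 (edgeR adjusted p = 3.7e-06). On the opposite strand Ikbkg shares 418 exon bases with G6pdx, 13.6% of its exon length. Ikbkg had 1096 to 1363 counts in KO and 1141 to 1254 counts in WT. The retrocopy G6pd2, 93.1% identical, had 0 to 2 counts in any library.

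Pgd (ENSMUSG00000028961, chr4:149149991-149166771, minus strand) encodes 6-phosphogluconate dehydrogenase, the other NADPH-making step of the branch. It was at 455, 521 and 510 CPM in KO, against 280, 313 and 297 CPM in WT. All KO values lay above all WT values, with a log2 fold change of 0.74 ± 0.10 (edgeR adjusted p = 9.7e-05). Pgls (ENSMUSG00000031807, chr8:71592176-71601092, plus strand), whose product opens the lactone between those steps, was at 52.8, 63.2 and 49.1 CPM in KO, against 40.1, 40.6 and 41.7 CPM in WT. Its WT libraries were close together and all below KO, with a log2 fold change of 0.43 ± 0.10 (edgeR adjusted p = 0.0051). Of its exon bases 20.6% are shared with Fam129c on the same strand, which had 31 to 44 counts in KO and 23 to 30 counts in WT, so reads from that stretch may be missing from the Pgls count.

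The rises within the branch differed in size. For G6pdx the 95% interval of the log2 fold change was 1.05 to 1.51. It was 0.53 to 0.95 for Pgd and 0.21 to 0.66 for Pgls. Within a library, the ratio of Pgd to G6pdx counts was 1.38, 1.51 and 1.502 in KO, against 2.35, 2.04 and 2.05 in WT. The log2 ratio was lower by -0.55 in KO minus WT, without overlap between genotypes (exact permutation test, 2-sided, p = 0.1, the smallest p that 3 against 3 libraries allow). This pair was chosen after its values had been seen.

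The non-oxidative branch rose as well. Taldo1 (ENSMUSG00000025503, chr7:141392199-141402968, plus strand), which encodes transaldolase, was at 217, 291 and 202 CPM in KO, against 79.2, 93.3 and 79.96 CPM in WT. It had the largest rise of the set, a log2 fold change of 1.49 ± 0.14, a fold of 2.81 with a 95% interval from 2.28 to 3.47 (edgeR adjusted p = 1.0e-05), and KO replicate 2 stood above the other KO libraries. A processed pseudogene copy, Gm17823, 94.7% identical over 923 bases, had 4 to 6 counts in KO and 1 count in each WT library. Tkt (ENSMUSG00000021957, chr14:30548359-30574720, plus strand) encodes transketolase, which exchanges 2-carbon units between sugar phosphates. It was at 351, 394 and 339 CPM in KO, against 179, 198 and 199 CPM in WT, a log2 fold change of 0.91 ± 0.10 (edgeR adjusted p = 2.1e-05). Rpia (ENSMUSG00000053604, chr6:70765720-70792232, minus strand) encodes the isomerase that converts ribulose 5-phosphate to ribose 5-phosphate. It had 18.6, 26.5 and 19.0 CPM in KO, against 7.35, 10.2 and 10.7 CPM in WT, and a log2 fold change of 1.18 ± 0.18 (edgeR adjusted p = 0.00033). In all 3 genes every KO library lay above every WT library, which held for 27.9% of all genes tested.

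Taldo1 and Tkt act on the same pool of sugar phosphates, and their ratio differed between genotypes. Taldo1 counts per Tkt count were 0.618, 0.740 and 0.595 in KO, against 0.441, 0.471 and 0.402 in WT, higher by 0.57 on the log2 scale in KO minus WT (exact permutation test, 2-sided, p = 0.1, the smallest possible here; a pair chosen after its values had been seen). The ratio of Tkt to G6pdx was 1.07, 1.14 and 0.998 in KO, against 1.51, 1.29 and 1.37 in WT, a log2 difference of -0.38 with the same exact permutation p of 0.1.

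Idh1 (ENSMUSG00000025950, chr1:65158616-65186500, minus strand) encodes the NADP-dependent isocitrate dehydrogenase of cytosol and peroxisomes. It was at 409, 464 and 395 CPM in KO, against 218, 251 and 220 CPM in WT, with no overlap and a log2 fold change of 0.88 ± 0.10 (edgeR adjusted p = 4.1e-05). Idh2 (ENSMUSG00000030541, chr7:80094846-80115392, minus strand), its mitochondrial counterpart, was at 84.8, 104 and 69.0 CPM in KO, against 68.4, 61.1 and 56.4 CPM in WT. KO replicate 3 barely exceeded WT replicate 1. The log2 fold change of Idh2 was 0.47 ± 0.14 (edgeR adjusted p = 0.018), and the call was lost without WT replicate 2 (edgeR adjusted p = 0.0599, log2 fold change 0.46) or WT replicate 3 (0.0669, log2 fold change 0.40). The estimate of Idh2 was also 0.31 without KO replicate 2 and 0.61 without KO replicate 3, where the call was kept. Idh1 counts per Idh2 count were 4.82, 4.48 and 5.73 in KO, against 3.18, 4.11 and 3.91 in WT, a log2 difference of 0.42 (exact permutation test, 2-sided, p = 0.1).

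The smaller rise of Idh2 stood beside larger rises of the NAD-linked enzyme that shares its substrate in mitochondria. Idh3a, Idh3b and Idh3g, the subunits of the NAD-dependent isocitrate dehydrogenase of the citric acid cycle, all rose, by 1.96, 1.68 and 1.43 on the log2 scale. Idh3a was at 424, 501 and 369 CPM in KO, against 89.6, 128 and 115 CPM in WT (edgeR adjusted p = 3.2e-06). There were 4.997, 4.83 and 5.35 Idh3a counts per Idh2 count in KO, against 1.31, 2.10 and 2.05 in WT, a log2 difference of 1.51 without overlap (exact permutation test, 2-sided, p = 0.1; a pair chosen after its values had been seen).

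**Figure D2:**
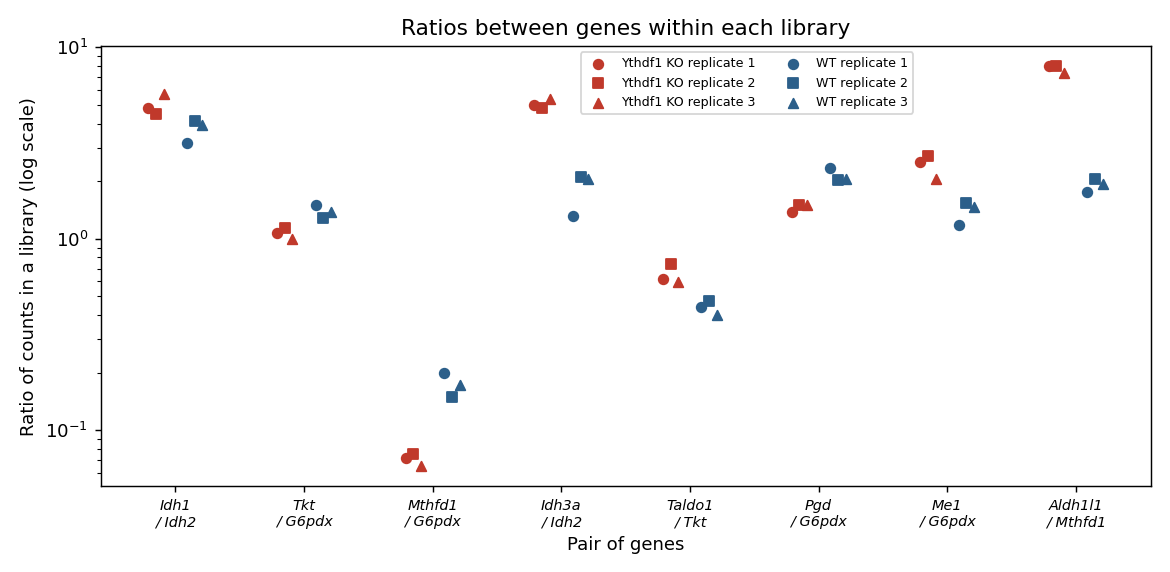
Ratio of the raw counts of pairs of genes within each library, on a log scale, with KO to the left of WT and symbols for replicates 1 to 3. The genotypes are separate for each of the 8 pairs. Idh1 to Idh2, Tkt to G6pdx and Mthfd1 to G6pdx were planned, and the other pairs were chosen after their values had been seen. How often the genotypes separate over pairs of all genes was not counted. The Mthfd1 to G6pdx ratio is at 0.0648 to 0.0752 in KO and 0.149 to 0.199 in WT. The Aldh1l1 to Mthfd1 ratio is at 7.38 to 8.0 in KO and 1.77 to 2.06 in WT.

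Mthfd1 (ENSMUSG00000021048, chr12:76255298-76319803, plus strand) encodes the cytosolic 3-function folate enzyme whose dehydrogenase step reduces NADP. It was at 23.5, 26.02 and 22.0 CPM in KO, against 23.6, 22.9 and 25.0 CPM in WT. The values overlapped, with a log2 fold change of -0.003 ± 0.104 (edgeR adjusted p = 0.99). The 95% interval of the fold, 0.852 to 1.17, leaves room for a small change in either direction but lies below the interval of each of G6pdx, Pgd, Rpia, Tkt, Taldo1 and Idh1. Mthfd1 counts per G6pdx count were lower in KO by -1.29 on the log2 scale (exact permutation test, 2-sided, p = 0.1). As Mthfd1 hardly moved, that ratio restates the rise of G6pdx (log2 fold change 1.28).

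Promoter windows of the largest rise, of the rate-limiting gene and of the gene that did not move are given for comparison, since the first pair rose together and the last did not. They are RefSeq windows on GRCm38.p6, 250 bases before to 50 after an annotated start, 5′ to 3′ on the gene's strand. Capitals mark every match to the CCAAT box (CCAAT, or ATTGG on the other strand) and to the core of the antioxidant response element (TGACNNNGC, or GCNNNGTCA on the other strand).
Taldo1 chr7:141391910-141392209, plus strand: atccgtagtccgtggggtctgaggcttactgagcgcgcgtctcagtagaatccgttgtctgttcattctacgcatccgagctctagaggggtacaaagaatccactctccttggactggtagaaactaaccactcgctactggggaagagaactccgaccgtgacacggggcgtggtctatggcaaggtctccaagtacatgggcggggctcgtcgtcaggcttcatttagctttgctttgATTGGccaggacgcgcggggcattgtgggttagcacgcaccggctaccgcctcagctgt
G6pdx chrX:74428831-74429130, minus strand: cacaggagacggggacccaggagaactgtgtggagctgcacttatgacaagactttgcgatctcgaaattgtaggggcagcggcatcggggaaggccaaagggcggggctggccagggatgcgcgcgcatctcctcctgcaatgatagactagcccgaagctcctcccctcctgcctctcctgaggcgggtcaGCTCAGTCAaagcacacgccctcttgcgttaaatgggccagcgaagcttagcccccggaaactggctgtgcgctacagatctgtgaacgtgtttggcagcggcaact
Mthfd1 chr12:76254982-76255281, plus strand: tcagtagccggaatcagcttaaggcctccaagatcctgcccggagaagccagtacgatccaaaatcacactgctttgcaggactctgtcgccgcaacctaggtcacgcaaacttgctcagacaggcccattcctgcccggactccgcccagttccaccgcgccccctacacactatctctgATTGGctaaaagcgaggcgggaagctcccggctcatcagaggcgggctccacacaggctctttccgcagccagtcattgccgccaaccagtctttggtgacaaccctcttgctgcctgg

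RefSeq windows were at hand for 9 of the 10 genes, 11 windows in all, since Idh1 and Pgd have 2 each. A GC box (GGGCGG or CCGCCC) was in 10 of the 11, against 35.7% of all 32851 windows of that length. A CCAAT box was in 5 of the 11 and in 37.4% of all windows. It stood in Taldo1 and Mthfd1 alike, -9 and -69 bases from the start. The antioxidant core was in 2 of the 11, G6pdx (-57) and the inner Pgd window (4), and in 12.4% of all windows. Neither the CACGTG E-box (7.15% of all windows) nor TCACNCCAC, a form of the sterol response element (1.24%), was found in these letters. Motifs were searched on both strands, and no match of one motif overlapped a match of another. GC content was 51.3% in the inner Pgd window and from 56.7% (Taldo1) to 68.3% (Idh2) in the others, with Mthfd1 at 59.0%. The median over all windows was 52.7%, and the part of GC content in the GC box matches was not tested. A match to letters is a description, not a binding site.

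Nnt (chr13:119335448-119408997, minus strand) encodes the nicotinamide nucleotide transhydrogenase, which uses the proton gradient to make NADPH in mitochondria. Its gene carries a deletion in the C57BL/6J strain that many other mouse strains lack. The table gave it almost no counts: ENSMUSG00000025453 had 4, 2 and 5 counts in KO and 13, 3 and 4 counts in WT, and a second identifier for Nnt, ENSMUSG00000116207, had 0 in all 6 libraries. In GENCODE all 3339 exon bases of the second identifier lie in exons of the first, on the same strand. They match nearly the whole of an annotated transcript of the first, 3464 bases long. Both identifiers are in the deposited table. Of 193 protein-coding genes with at least 90% of their exon bases in another gene of the strand, 72.5% had 0 counts in all libraries, against 20.9% of the 21188 genes with under 10% shared. The second identifier is in that class. The first, which carries all 31 counts of Nnt, has 47.4% of its 7037 joined exon bases shared. Of the 395 genes with more than 10% and up to 50% shared, 11.6% had 0 counts, with a median total of 404 counts over the 6 libraries. These classes go by joined exon length. The shared part of Nnt is nearly the whole of that 3464-base transcript, so neither class need be like Nnt. The levels of Nnt, at 0.114 to 0.244 CPM in KO and 0.185 to 0.735 CPM in WT, overlapped between genotypes. Nnt did not pass the filter on low counts, and without that filter its log2 fold change was -0.96 (edgeR adjusted p = 0.46). Whether the low counts follow the expression of Nnt, the strain or the counting of shared exons was not tested. The highest value, WT replicate 1, rests on 13 counts.

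**Figure D3:**
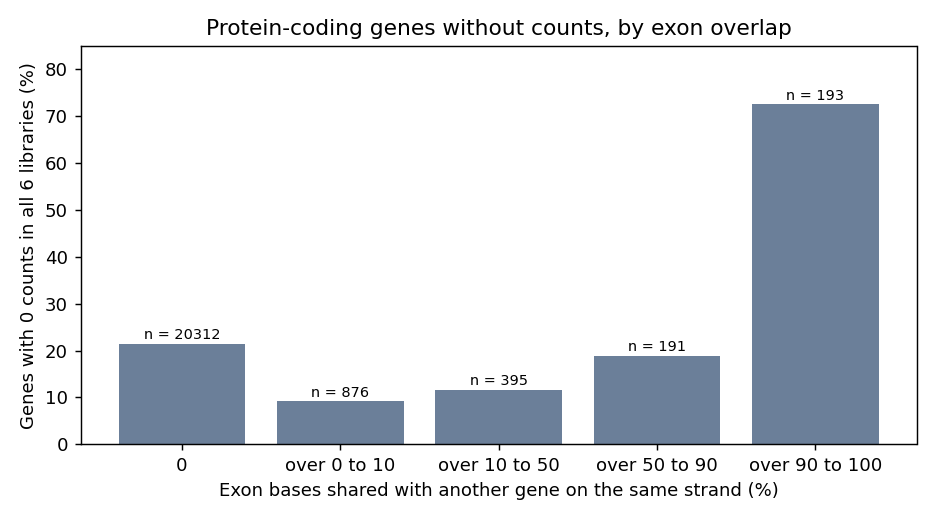
Share of protein-coding genes with 0 counts in all 6 libraries, by the percentage of their exon bases that another gene of the same strand also holds, with the number of genes above each bar. The share is 72.5% for the 193 genes in the highest class and between 9.13% and 21.4% in the other classes.

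Levels can be set between genes per kilobase of exon. On that scale Idh1 was the most abundant of the tested genes in each genotype, at 153 ± 13.2 CPM per kb in KO and 82.9 ± 6.67 in WT (SD, n = 3 each). In KO, G6pdx followed at 110 ± 2.81, Taldo1 at 109 ± 22.1 and Pgd at 76.8 ± 5.50 CPM per kb, while in WT the same genes were at 45.2 ± 5.81, 38.8 ± 3.66 and 46.0 ± 2.57. G6pdx and Taldo1 in KO, and G6pdx and Pgd in WT, differed by less than the spread between libraries. Tkt (49.1 ± 3.92 in KO, 26.1 ± 1.51 in WT) and Idh2 (33.2 ± 6.72 in KO, 23.9 ± 2.35 in WT) came next, and were within their spread of each other in WT. Pgls (14.6 ± 1.95 in KO, 10.8 ± 0.213 in WT), Mthfd1 (5.37 ± 0.456 in KO, 5.37 ± 0.242 in WT) and Rpia (3.99 ± 0.835 in KO, 1.76 ± 0.340 in WT) were the lowest. Exon lengths here join all annotated transcripts of a gene, so a gene with long unused exons is placed too low.

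Libraries of a genotype moved together over the set. All 9 tested genes were highest in KO replicate 2 among the KO libraries, and 7 of 9 were lowest in WT replicate 1 among the WT libraries. Among all genes that were higher in KO, 50.3% were highest in KO replicate 2 and 58.0% lowest in WT replicate 1. The adipocyte markers summed to 17621, 21684 and 16006 CPM in KO replicates 1 to 3, and to 3750, 5334 and 5713 CPM in WT replicates 1 to 3, so the same libraries were at the extremes there. Without KO replicate 2, and likewise without WT replicate 1, 8 of the 9 genes were still called higher. KO replicate 3 had the most macrophage RNA and the lowest adipocyte marker sum of the KO libraries. It was the lowest KO library for 6 of the 9 genes, but the share over all genes was not counted. What set this order was not tested. Without KO replicate 3, 8 of the 9 were called higher.

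Of 13 other listed genes of the pentose phosphate pathway and of ribose use, 10 were tested, of which 2 rose and 1 fell (median log2 fold change 0.14), against 22.6% higher and 21.7% lower over all genes tested. Rbks, a ribokinase gene, rose by 1.08 and Shpk, whose product makes sedoheptulose 7-phosphate, rose by 0.96, both on the log2 scale. Rbks was at 3.84 ± 0.416 CPM in KO and 1.81 ± 0.105 CPM in WT, and Shpk was at 13.5, 17.8 and 10.6 CPM in KO, against 7.13, 7.04 and 7.43 CPM in WT. Prps2, a gene for the enzyme that activates ribose 5-phosphate for nucleotide synthesis, fell to 28.9 ± 2.86 CPM in KO, against 38.6 ± 2.57 CPM in WT (log2 fold change -0.41). H6pd, the glucose 6-phosphate dehydrogenase of the endoplasmic reticulum, was at 661, 619 and 678 CPM in KO, against 506, 569 and 673 CPM in WT. Its genotypes overlapped, with a log2 fold change of 0.16 and a 95% interval from -0.09 to 0.42 (edgeR adjusted p = 0.28). That interval lies below the interval of G6pdx, the cytosolic enzyme for the same reaction (1.05 to 1.51).

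Among 6 other genes of NADPH and NADP supply, 4 rose and 0 fell (median log2 fold change 0.39). Over all genes tested, 22.6% were higher and 21.7% lower. Me1, cytosolic malic enzyme, was at 825, 937 and 695 CPM in KO, against 141, 237 and 212 CPM in WT, a log2 fold change of 2.06 ± 0.19 (edgeR adjusted p = 2.6e-05). Me1 counts per G6pdx count were 2.51, 2.71 and 2.04 in KO and 1.18, 1.55 and 1.46 in WT. Its log2 ratio to G6pdx differed by 0.79 (exact permutation test, 2-sided, p = 0.1; chosen after its values had been seen). Glud1, glutamate dehydrogenase, rose by 0.60 and Nadk, the cytosolic kinase that makes NADP from NAD, by 0.42. Nadk2, its mitochondrial counterpart, rose by 0.36, and its call was lost without KO replicate 1 (edgeR adjusted p = 0.0622) or WT replicates 2 (0.0944) or 3 (0.0508). Me2 and Me3, mitochondrial malic enzymes, had log2 fold changes of -0.14 and -0.36 with edgeR adjusted p = 0.22 and 0.40, short of the threshold.

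**Figure D4:**
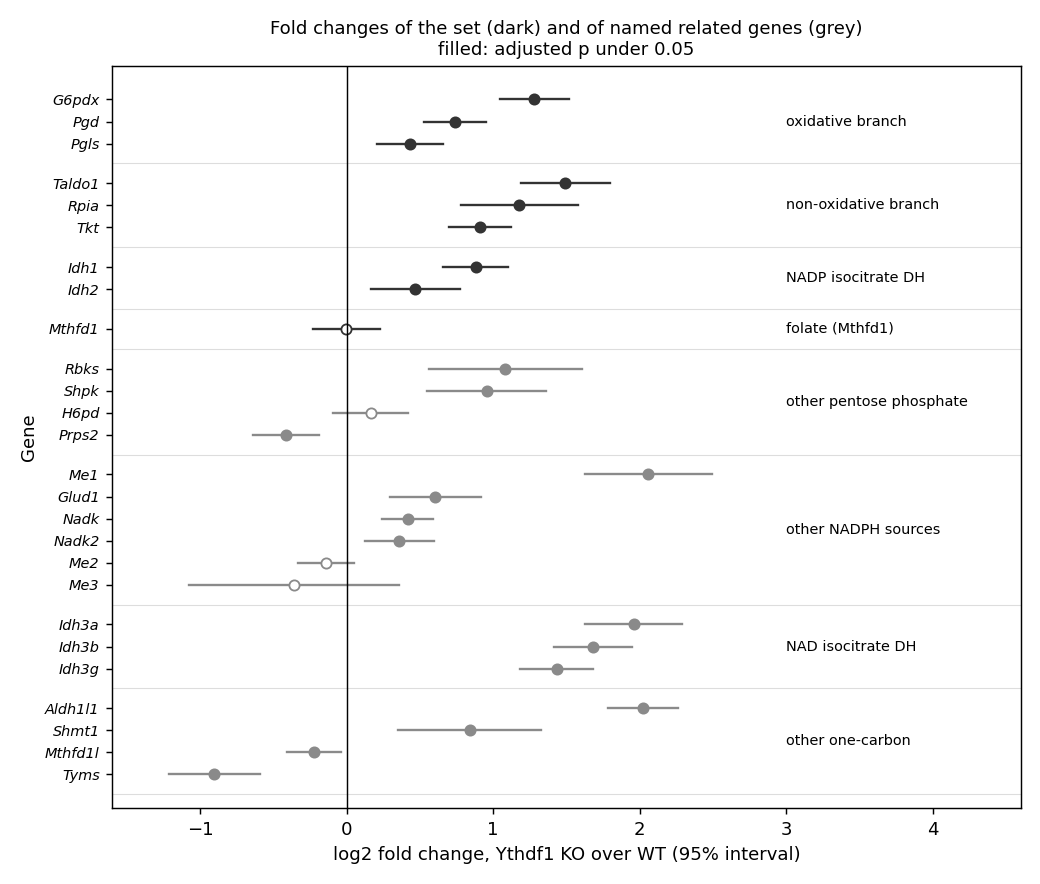
Log2 fold changes, KO over WT, with 95% intervals for the 9 tested genes of the set (dark) and for the related genes of supply and one-carbon metabolism named in the text (grey), grouped by role from top to bottom, filled where the edgeR adjusted p was under 0.05. The 8 filled genes of the set lie between 0.43 and 1.49, Mthfd1 is at 0, and Me1, Aldh1l1 and Idh3a reach 1.96 to 2.06.

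Of 14 other genes of folate one-carbon metabolism, 2 rose, 3 fell and 9 did not pass (median log2 fold change -0.04), shares near those over all genes tested (22.6% higher, 21.7% lower). Aldh1l1, which oxidises formyl-tetrahydrofolate and yields NADPH in the cytosol, rose by 2.02 ± 0.11, to 188, 208 and 163 CPM in KO, against 41.7, 47.3 and 48.2 CPM in WT. Shmt1, cytosolic serine hydroxymethyltransferase, rose by 0.84 at 7.66 ± 1.67 CPM in KO and 4.27 ± 0.844 CPM in WT. Tyms, thymidylate synthase, fell by 0.90 on the log2 scale. Mthfd1l, for a mitochondrial formate-producing step, had a log2 fold change of -0.22 (edgeR adjusted p = 0.049), and that call was lost under DESeq2 (adjusted p = 0.0755), without the low-count filter (0.102) or with the library suffix as a covariate (0.0585), and in edgeR without any 1 library other than KO replicate 2 (adjusted p up to 0.208, without WT replicate 2). Aldh1l1 counts per Mthfd1 count were 8.0, 7.98 and 7.38 in KO, against 1.77, 2.06 and 1.93 in WT (log2 difference 2.02, exact permutation test, 2-sided, p = 0.1; chosen after its values had been seen). Mthfd1 itself had a log2 fold change of -0.003, so this ratio restates the rise of Aldh1l1.

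The citrate and malate shuttle carries acetyl units and malate to the cytosol and so feeds Idh1 and Me1 with substrate. All 7 of its listed genes rose (median log2 fold change 1.44), against 22.6% higher over all genes tested. Acly, ATP citrate lyase, rose by 2.12, and Aco1, cytosolic aconitase, by 1.52. The smallest rise of the list was 0.72.

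Enzymes that spend NADPH did not all follow. Of 14 genes of fatty acid, sterol and related lipid synthesis, 9 rose and 1 fell (median log2 fold change 0.55). The shares over all genes tested were 22.6% higher and 21.7% lower. The largest rise of the list was that of Fasn, fatty acid synthase, which was singled out after its values had been seen, at 2.59 ± 0.25. Hsd17b12, a ketoacyl reductase of fatty acid elongation, rose by 1.70, Mecr, of mitochondrial fatty acid synthesis, by 1.255, and Por, which passes electrons from NADPH to cytochrome P450 enzymes, by 0.88. Lbr, a sterol reductase of the nuclear membrane, fell by 0.42.

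The 14 NADPH-using redox and proline genes had a median log2 fold change of 0.03. They were split, with 6 higher and 6 lower, against 22.6% and 21.7% over all genes tested. In that count Akr1b3 and Blvrb (higher) and Cyba and Txnrd1 (lower) each lost the call when single libraries were left out, among them WT replicate 2 for all 4 (edgeR adjusted p between 0.0795 and 0.106). Akr1b3 also lost it under limma-voom (adjusted p = 0.124) and upper-quartile factors (0.0772), and Blvrb under upper-quartile factors (0.0681). Cbr1, a carbonyl reductase, rose by 1.21, Txnrd2, mitochondrial thioredoxin reductase, by 1.47, and Gsr, glutathione reductase, by 0.53. Gsr was at 52.0, 51.9 and 71.2 CPM in KO, against 38.9, 44.1 and 38.9 CPM in WT, highest in the KO library with the most macrophage RNA, whose part in it was not tested. The falls with the smallest p were Pycr1 (8.88 ± 0.992 CPM in KO, 29.9 ± 6.02 CPM in WT, log2 fold change -1.76) and Aldh18a1 (-0.63), which make proline, and Nox4 (-1.05), an oxidase that turns NADPH into hydrogen peroxide. Nqo1, a quinone reductase widely used as a marker of the antioxidant response, fell to 8.78 ± 1.23 CPM in KO, against 15.8 ± 1.95 CPM in WT (log2 fold change -0.85, edgeR adjusted p = 0.00082; named after its values had been seen).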

How the data were processed

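The deposited table holds raw read counts per Ensembl gene as the authors deposited them, whole numbers with no normalisation. Per the labels' protocols, libraries were made from total RNA after removal of ribosomal RNA, and read as 150 bp pairs. The tools named, per the submitters' processing notes, are featureCounts and STAR, and the builds GRCm38 and mm10. Versions, strand setting and the treatment of reads touching more than 1 gene were not given in the sources used here. Symbols, exons and coordinates came from GENCODE mouse release 21, which held 53706 of the 53801 identifiers.

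Counts were filtered with filterByExpr (minimum count 10, minimum total 15) and scaled by TMM in edgeR 4.0.16 (R 4.3.3). KO and WT were compared with edgeR's quasi-likelihood F test (robust, legacy form), and p-values were adjusted by Benjamini-Hochberg over all 14816 genes tested. CPM use the same scaled totals. Single ratios were compared by an exact permutation test. The p-values refer to the spread between replicates, which were distinct libraries (chi-square per degree of freedom 9.30 to 23.9 within a genotype, 143 to 216 between). Intervals and floors of 3 counts cover no error of culture or isolation that went with genotype. The fit was tested on simulated counts first, with 50 genes changed at each fold. It recovered 10% of the 1.25-fold changes, 50% of the 1.5-fold, 74% of the 2-fold and 100% of the 4-fold. There were 10 false calls in 14816 genes. A gene that did not pass may therefore still have a small change. Copies were sought with BLAST+ 2.17.0 (at least 90% identity over at least 200 bases).

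Genes were chosen, and the lists of related genes and markers drawn from general knowledge, with earlier results of these data known. Named were all 10 genes, then of each related list every gene that passed where at most 5 did, otherwise the 3 smallest p in each direction, plus H6pd, Me1 and Idh3a. Other names were added after their values had been seen. Some genes of the related lists are counted but not reported here by name. The ratio of Nnt to Idh2 is not reported, since Nnt had 2 to 13 counts. As alternatives, DESeq2 1.42.0, limma 3.58.1 (voom), upper-quartile and RLE factors, other filters and gene sets, a replicate block, the suffix of the library names, and leaving out each library were tried.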

Additional observations from a re-analysis of the deposited data

How the results depend on the processing

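Over 16 alternatives, 8 genes of the set were called higher in each, except without WT replicate 2 or 3, where Idh2 was lost and 7 remained. Of 144 recomputed values 142 had the same call and 0 reversed. Under the 10 alternatives other than leaving out a library, G6pdx ran from 1.21 to 1.29, Taldo1 from 1.37 to 1.496 and Mthfd1 from -0.06 to 0.01 on the log2 scale. Other scalings moved the median of all genes by at most -0.05 (log2, upper-quartile factors). With the replicate number as a block, 8 were called higher and 0 lower, and of the related genes Akr1b3 (edgeR adjusted p = 0.0665) and Mthfd1l (0.0776) lost the call. The labels do not pair the libraries. Deviations of same-numbered ones correlated at -0.285, 0.053 and -0.102 over 5000 genes, and those of KO replicate 1 and WT replicate 3 at 0.368. These deviations are from the mean of each genotype's 3 libraries and so depend on each other, and the check cannot show whether libraries were paired. Over the whole table each count of calls was within 1.5 times the main count under all 16. Among related genes, 33 higher and 11 lower, the lower count ran from 7 to 10 with 1 library left out. It was 7 without KO replicate 1, WT replicate 1 or WT replicate 2. Of 1103 values for related genes 37 lost a call, 2 gained one and 0 reversed. Among related genes, the low counts of Me3 and Mthfs came with wide intervals.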
